A study of Mus musculus with 15 samples.

Results

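The nuclear-encoded subunits of the mitochondrial respiratory chain were compared between livers of normal mice, diabetic KKAy mice and KKAy mice given the Chinese herbal medicine Xiao-Ke-An (XKA). The genes were taken from the array annotation by name. A probe set with 1 gene symbol was a member if the symbol was Ndufa, Ndufb, Ndufc, Ndufs or Ndufv followed by a digit, or began with Uqcr, with Cox and a digit from 4 to 8, or with Atp5. This gave 77 genes of the 18193 measured, with 35 in complex I, 8 in complex III, 17 in complex IV and 17 in complex V. Ndufa4 and Ndufa4l2 were counted under complex I by name, although both proteins belong with complex IV. Cox7a2l matches the rule by name and is a factor of the supercomplexes, not a subunit of 1 complex.

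RNA from whole liver was hybridised to Affymetrix mouse arrays, 1 male mouse per array, with 5 mice in every group and 15 in all. C57BL/6J mice on chow, given distilled water, served as the normal group. The model group (KKAy model) was KKAy mice, which carry the lethal yellow allele of agouti, on a high-fat diet and given distilled water. The treated group (XKA-H) was KKAy mice on the same high-fat diet, given XKA at 1.5 g/kg. All were dosed daily by oral gavage for 32 days from an age of 10 weeks. Strain, diet and supplier differed together between the KKAy and C57BL/6J mice and cannot be told apart.

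Complex I oxidises NADH and passes its electrons to ubiquinone, complex III carries them on to cytochrome c, and complex IV hands them to oxygen. Protons pumped on the way drive ATP synthesis by complex V. Most subunits are encoded in the nucleus, made in the cytosol and imported, and the hepatocyte is rich in mitochondria. Nuclear respiratory factor 1 (NRF1), GABPA, the estrogen related receptor ESRRA and YY1 are transcription factors known to bind promoters of such genes.

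Short promoter stretches are shown for the genes that hold the letters GCATGCGC, the core of the NRF1 motif, because this is the sequence feature most often tied to the gene family. RefSeq promoters (build GRCm38.p6, from 250 bases before to 50 after the start site) were found for 63 of the 77 genes. The core, read on both strands, was in 8 of these 63 (12.7%), against 3.05% of all 27025 genes with a promoter and 4.68% of the 14452 that were also measured. Capitals mark the core, and each stretch is written 5′ to 3′ along the gene.
Ndufa6 (chr15:82354358-82354383, minus strand): cgcggtagaGCATGCGCattgcagag
Ndufa8 (chr2:36049330-36049355, minus strand): gctggagacGCATGCGCagatggtac
Uqcr11 (chr10:80406809-80406834, minus strand): cgccttcacGCATGCGCtatacgtct
Uqcrc1 (chr9:108936671-108936696, plus strand): ccgctctgcGCATGCGCagcgcggct
Cox6a1 (chr5:115349102-115349127, minus strand): gaacggggcGCATGCGCgctctcgct
Atp5g2 (chr15:102671071-102671096, minus strand): tccggccgcGCATGCGCagagccttc
Atp5k (chr5:108434431-108434456, minus strand): cactgcggcGCATGCGCctttctggc
Atp5l (chr9:44920966-44920991, minus strand): accaataacGCATGCGCatttccccc

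In Uqcrc1, Cox6a1, Atp5g2 and Atp5k the letters overlap the same core on the other strand. The core began 4 bases before the start site in Uqcr11, 8 before it in Ndufa8 and 240 before it in Atp5l, and 32 bases after it in Uqcrc1. The YY1 motif AAGATGGCG was in 6 of the 63 promoters (9.52%, against 1.64% of all promoters and 2.53% of those of measured genes), and in 5 of these 6 it lay 22 to 35 bases after the start site. They are shown because the position was shared, with the motif in capitals.
Ndufa9 (chr6:126849098-126849124, minus strand): ttgtgggagAAGATGGCGgccgccgtc
Ndufc1 (chr3:51408916-51408942, minus strand): ctgcggaacAAGATGGCGccgtccgta
Ndufs4 (chr13:114388045-114388068, minus strand): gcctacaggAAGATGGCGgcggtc
Ndufs7 (chr10:80249464-80249490, plus strand): gccgaggccAAGATGGCGgcgctggcg
Atp5j2 (chr5:145191501-145191527, minus strand): caggacttcAAGATGGCGtcactcggt

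In Atp5j, the other gene with this motif, it lay 88 bases before the start site. The ETS motif CCGGAAGT, which GABPA reads, was in 5 of 63 promoters (7.94%, against 4.31% of all and 6.62% of measured genes), namely Atp5h, Cox8a, Ndufs3, Uqcr11 and Uqcrh. The ESRRA motif TCAAGGTCA was in Atp5g3 alone (1.59%, against 0.466% and 0.401%). These are matches of letters and do not show that a factor was bound. None of the 14 genes with the NRF1 core or the YY1 motif passed the test in any comparison described below, although Ndufa6, Ndufa8, Ndufc1 and Ndufs7 were called lower under other scalings and Ndufs4 higher without 1 array, as described there.

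The array medians differed as deposited, from 127 to 182, so each array was scaled to a median of 1000, and the word signal means this scaled intensity. After scaling, 71 of the 77 genes had a mean log2 signal above the array median. The 10 hepatocyte markers fixed for the check of the tissue, among them Alb and Ttr, were all above it, and none passed the test in any comparison. Of 11 striated muscle markers, 2 were above it. Gene-by-gene tests were made with limma on log2 signals of all 15 arrays, two-sided, and a gene was called when its Benjamini-Hochberg adjusted p over all 18193 genes was under 0.05. In whole liver, fewer cells of a type and less RNA per cell cannot be told apart.

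Several arrays stood apart for these genes in the scaled values, before any comparison. KKAy model replicate 5 had the lowest mean log2 level of its group for all 77 genes, 16.15, while the other 4 model arrays lay between 16.38 and 16.42. XKA-H replicate 1 (16.01) and replicate 5 (16.12) lay below the other 3 arrays of that group (16.36 to 16.44). The C57BL/6J arrays ran from 16.10 to 16.44. The mean log2 level of the hepatocyte markers was also the lowest of its group in KKAy model replicate 5 (18.45) and in XKA-H replicate 5 (18.38). The deposited median of KKAy model replicate 5 was 162, against 127 to 140 on the other model arrays, and the part of the scaling in its low level was not tested separately. In the values as deposited, the model arrays lay between 13.44 and 13.57. KKAy model replicate 5 was the middle one there, at 13.52, and so was not low before scaling. XKA-H replicates 2 and 3, labelled KKAy like the rest of their group, lay with the C57BL/6J arrays and apart from the other KKAy arrays on 15 probe sets, which are described with Uqcr10, and results for XKA-H are also given without both.

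**Figure D1:**
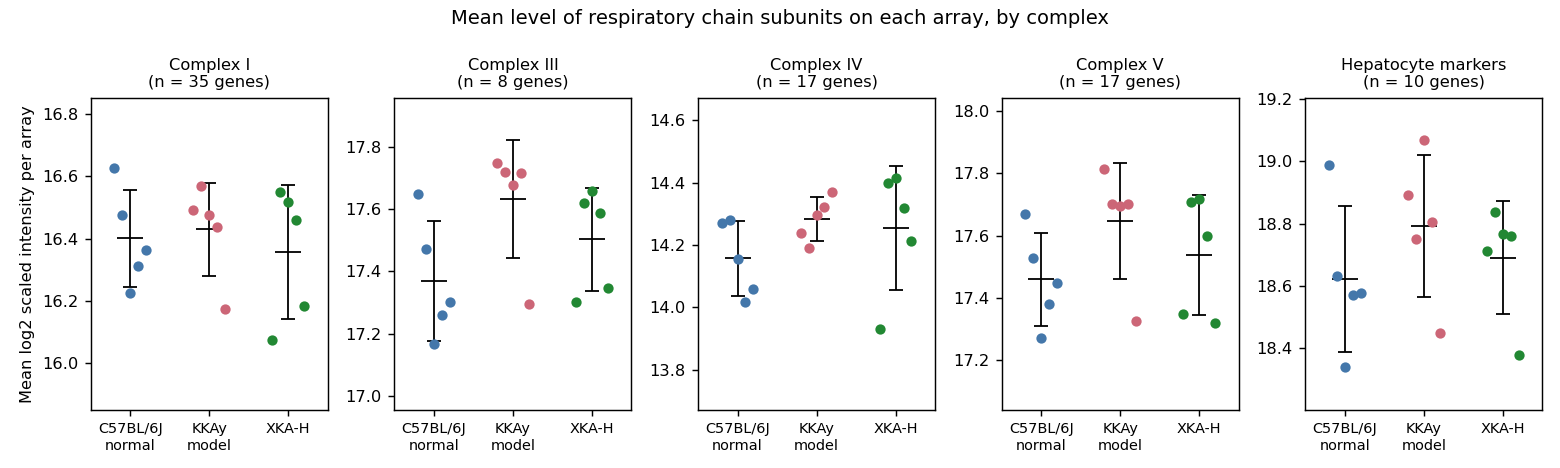
Mean log2 scaled intensity of the genes of each complex, and of 10 hepatocyte markers, on each array (y axis) by group (x axis). Points are arrays, bars are the mean ± SD of 5 arrays, and every panel spans 1 log2 unit. KKAy model replicate 5 is the lowest model array in complexes I, III and V and the highest in complex IV.

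The first comparison, of the KKAy model with C57BL/6J mice, asked how the respiratory chain genes differed in the liver of diabetic mice that were not given XKA. Most did not pass the test. Of the 77 genes, 2 were called higher (2.6%), beside 10.6% of all genes, and 3 were called lower (3.9%), beside 2.43% of all genes. Ndufb2, an accessory subunit in the membrane arm of complex I, and Uqcr10, a small subunit of complex III, were higher. Ndufa12, an accessory subunit of the matrix arm of complex I, Ndufv1, the subunit that carries the flavin and oxidises NADH, and Cox7c, a small subunit of complex IV, were lower. At an unadjusted p under 0.05, 15 were higher (19.5%, the same share as over all genes) and 4 lower (5.19%, beside 5.71% of all genes). The members are bright, and 746 genes lay at or above the first quartile of the members' own level. Of these 746, 262 were higher and 27 lower at that p, and 18.2% were called higher and 2.01% lower. The median log2 change over the 77 genes was 0.19, against 0.15 over all genes and 0.22 over these 746. The median of the 77 genes ran from 0.13 without C57BL/6J replicate 3 to 0.27 without KKAy model replicate 5. These medians moved with the scaling. In the deposited values the median over the 77 genes was 0.00 and that of all genes -0.04, and after quantile normalization they were 0.00 and 0.04.

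Ndufa12 had signals of 223132, 190905, 146704, 196365 and 193181 on the 5 C57BL/6J arrays. On the KKAy model arrays they were 147514, 141778, 122490, 128554 and 112316, and on the XKA-H arrays 91461, 117490, 120432, 121083 and 107431. The lowest normal array lay just under the highest model array, and all 5 XKA-H arrays lay below all 5 normal arrays. The log2 change was -0.54 ± 0.13 (SE) in the model against normal mice (limma adjusted p = 0.011) and -0.76 ± 0.13 in XKA-H against normal mice (limma adjusted p = 0.000995). The exact permutation test gave p = 0.0159 and p = 0.00794, of which the latter is the smallest that 5 arrays against 5 can give.

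For Ndufv1 the normal arrays read 122610, 115651, 101045, 98361 and 116887. The model arrays read 92726, 83001, 87720, 94624 and 65796, and the XKA-H arrays 59646, 81590, 74545, 80254 and 64174. All normal arrays were above all KKAy arrays. The log2 change was -0.39 ± 0.13 in the model (limma adjusted p = 0.0499, just inside the threshold) and -0.63 ± 0.13 in XKA-H against normal mice (limma adjusted p = 0.00403). Leaving out 1 array at a time kept the first call in 2 of 15 fits and the second in all 15.

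Ndufb2 read 105685, 103454, 76910, 84039 and 86026 on the normal arrays and 147091, 125995, 127890, 129919 and 104551 on the model arrays. The groups overlapped only through KKAy model replicate 5. On the XKA-H arrays it read 92921, 128222, 119757, 111743 and 98442, overlapping both other groups. The log2 change was 0.48 ± 0.13 in the model (limma adjusted p = 0.0203) and 0.27 ± 0.13 in XKA-H against normal mice, which did not pass (limma adjusted p = 0.265).

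Cox7c was measured by a dim probe set, with signals of 2591, 2154, 2547, 1943 and 3076 on normal arrays. The model arrays read 1568, 783, 1562, 1351 and 914, all below the normal ones. The XKA-H arrays read 1788, 1486, 1534, 2447 and 1593 and overlapped both groups. The log2 change in the model was -1.03 ± 0.26 (limma adjusted p = 0.0112), and the call was kept in each of 15 fits that left out 1 array. With the mean of both probe sets of the gene it was lost, at -0.64 (limma adjusted p = 0.105).

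Uqcr10 read 114135, 100080, 75144, 82604 and 87608 on the normal arrays with its brightest probe set and 135122, 135672, 122382, 128684 and 104257 on the model arrays. The XKA-H arrays read 87275, 111758, 123849, 125222 and 104972. As for Ndufb2, KKAy model replicate 5 was the only model array within the range of the normal arrays. The log2 change in the model was 0.46 ± 0.14 (limma adjusted p = 0.0334). The call was kept in 8 of 15 fits that left out 1 array and was lost in the deposited values (0.26) and after quantile normalization (0.25). The mean of its 3 probe sets turned the change to -2.04.

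**Figure D2:**
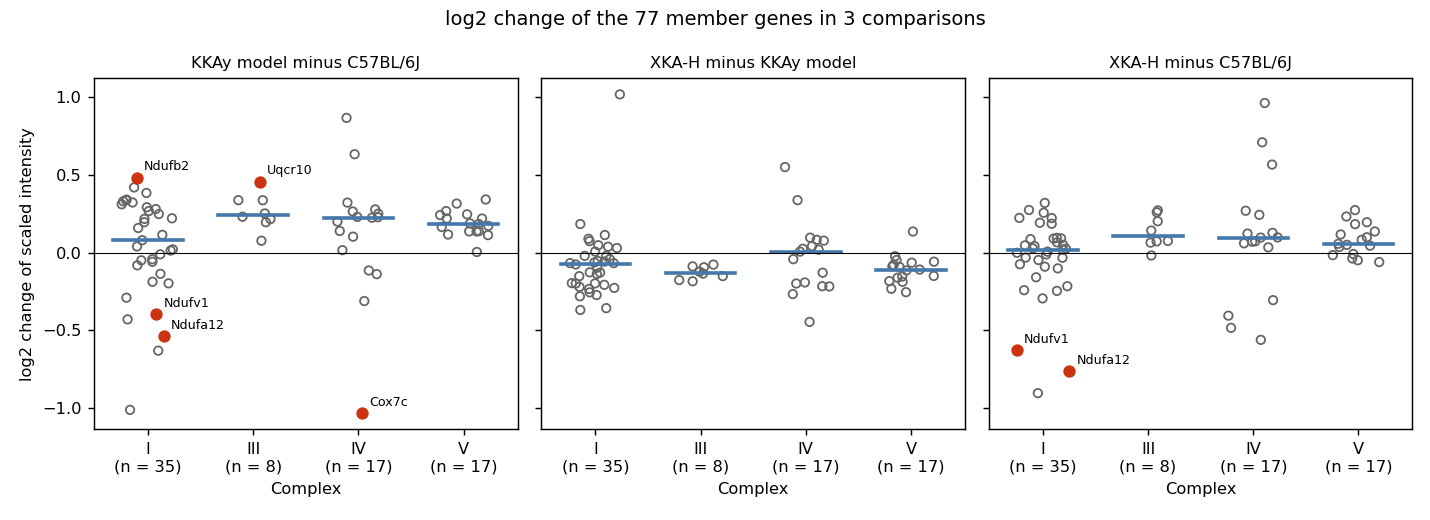
log2 change (y axis) of each of the 77 genes by complex (x axis) in 3 comparisons. Filled and named points have a limma adjusted p under 0.05, open points do not, and blue lines are medians of the complex, such as 0.24 for complex III in the KKAy model against C57BL/6J mice (0.05 in the deposited values).

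In complex I the 35 genes had changes from -1.01 to 0.48. The median was 0.08 and 21 of the 35 were above 0, but the median was -0.11 in the deposited values and -0.10 after quantile normalization. Its 3 called genes are those described above. Ndufs1, a core iron-sulfur subunit, had a log2 change of 0.38 ± 0.13 and missed the threshold (limma adjusted p = 0.0608), as did Ndufa10 at 0.42 ± 0.15 (limma adjusted p = 0.0857). Ndufa4l2, a relative of Ndufa4 known to be induced in hypoxia, had the most negative change, -1.01 ± 0.64, at signals from 133 to 1870 over all arrays and with every group overlapping. Ndufb4, at -0.63 ± 0.64, was also below the array median.

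All 8 genes of complex III had positive values in the model against normal mice, from 0.08 (Uqcrh) to 0.46 (Uqcr10), with a median of 0.24, and only Uqcr10 passed the test. Uqcrfs1, the Rieske iron-sulfur protein, was at 0.22 ± 0.15 and Uqcrc1, a core protein of the complex, at 0.25 ± 0.14. Uqcrq was at 0.34 ± 0.15. The median of complex III was 0.05 both in the deposited values and after quantile normalization.

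In complex IV, Cox7c apart, the subunits not restricted to other tissues ran from 0.10 (Cox8a) to 0.32 (Cox7a2), and none of these passed the test. Cox4i1, a regulatory subunit, was at 0.28 ± 0.16 and Cox5a at 0.22 ± 0.15, and 13 of the 17 genes were above 0, with a median of 0.22 (0.03 in the deposited values and 0.01 after quantile normalization). The tissue-restricted isoforms are known from other organs: Cox6a2, Cox7a1 and Cox8b from heart and skeletal muscle, Cox4i2 from lung, and Cox6b2, Cox7b2 and Cox8c from testis. None of these passed the test in any comparison. Cox8b (signals 79 to 1044) and Cox7b2 (57 to 629) were near or below the array median throughout. Cox6a2 read 780 to 2606 and Cox7a1 574 to 2370. Cox8c was brighter, at 5507 to 8543, and lay above the array median on every array. Of these isoforms Cox4i2 had the smallest adjusted p between XKA-H and normal mice, with a log2 change of 0.71 ± 0.33 and signals of 408 to 972 on normal arrays and 823 to 1411 on XKA-H arrays (limma adjusted p = 0.24).

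In complex V all 17 genes were at or above 0, from 0.00 (Atp5c1) to 0.34 (Atp5e), with a median of 0.18, and none passed the test. Atp5a1 and Atp5b, the alpha and beta subunits of the catalytic head, were at 0.22 ± 0.16 and 0.14 ± 0.15. Atp5b read 327318, 311819, 258268, 301362 and 277266 on the normal arrays and 325802, 354689, 339518, 369399 and 243160 on the model arrays, with KKAy model replicate 5 the lowest of all 10. This common sign depended on the scaling, as the median of complex V was -0.01 in the deposited values and 0.00 after quantile normalization.

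The number of calls depended on single arrays, inside and outside the 77 genes. With KKAy model replicates 1 to 4 left out in turn, 1939, 1941, 1751 and 1689 of all genes were called, against 2366 with every array. Without KKAy model replicate 1, C57BL/6J replicate 3 or C57BL/6J replicate 4, 2 of the 77 genes were called, both lower, and without KKAy model replicate 2, 3 or 4 or C57BL/6J replicate 5, 3 were called. Without KKAy model replicate 5, 13 of the 77 genes were called between the model and normal groups, 11 higher and 2 lower, and 13.1% of all genes were called higher. The 11 were Ndufb2, Uqcr10, Ndufa10, Atp5e, Ndufa2, Ndufs1, Uqcrq, Ndufa1, Ndufs4, Ndufv3 and Uqcrc2, with log2 changes from 0.40 to 0.55. By contrast, the values as deposited gave 1 member higher and 5 lower, beside 6.25% and 5.65% of all genes, with Ndufa6 at -0.62 and Ndufc2 at -0.25 joining Ndufa12, Ndufv1 and Cox7c. Quantile normalization gave 1 higher and 8 lower, beside 8.81% and 6.06% of all genes, and 7 of those 8 were in complex I.

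In 4 of the 5 called genes, bright probe sets of the same gene had opposite signs. The array holds 155 probe sets for the 77 genes, and 45 genes have more than 1. Of the 41 genes with at least 2 probe sets whose mean signal was above the array median, the log2 changes of the model against normal mice lay within 0.5 of each other in 31. The 3 genes with the widest spread were among the 5 called: Uqcr10, Ndufv1 and Ndufa12, with spreads of 4.82, 1.27 and 0.97. In the 2 paragraphs on single probe sets that follow, adjusted p-values come from a limma fit of every probe set.

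Ndufa12 had another bright probe set, the dimmest of its 3 bright ones, on which the signal rose in the model instead, by 0.43 ± 0.13 (limma adjusted p = 0.0412). It read 84902, 84315, 67101, 74639 and 77271 on the normal arrays and 106862, 114010, 97701, 117258 and 87866 on the model arrays. The remaining bright one was at -0.23 ± 0.14 and did not pass. On the dimmest of its 3 probe sets Ndufv1 was lower with a log2 change of -1.10 ± 0.14 in the model and of -1.38 ± 0.14 in XKA-H against normal mice (limma adjusted p = 2.62e-05 and 1.79e-06). There the normal arrays read 90726 to 132634, the model arrays 38729 to 56904 and the XKA-H arrays 34364 to 50429, so the normal arrays stood apart and the KKAy groups overlapped. On the probe set of middle brightness the same gene was at 0.17 ± 0.13 and 0.02 ± 0.13, and neither passed. Ndufb2 was at -0.16 ± 0.19 on its other bright probe set. With the mean of a gene's probe sets the model calls of Ndufa12 (-0.30) and Ndufb2 (0.00) were lost. Why the probe sets of a gene differed was not tested, and the direction of each of these genes holds for the named probe set only.

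**Figure D3:**
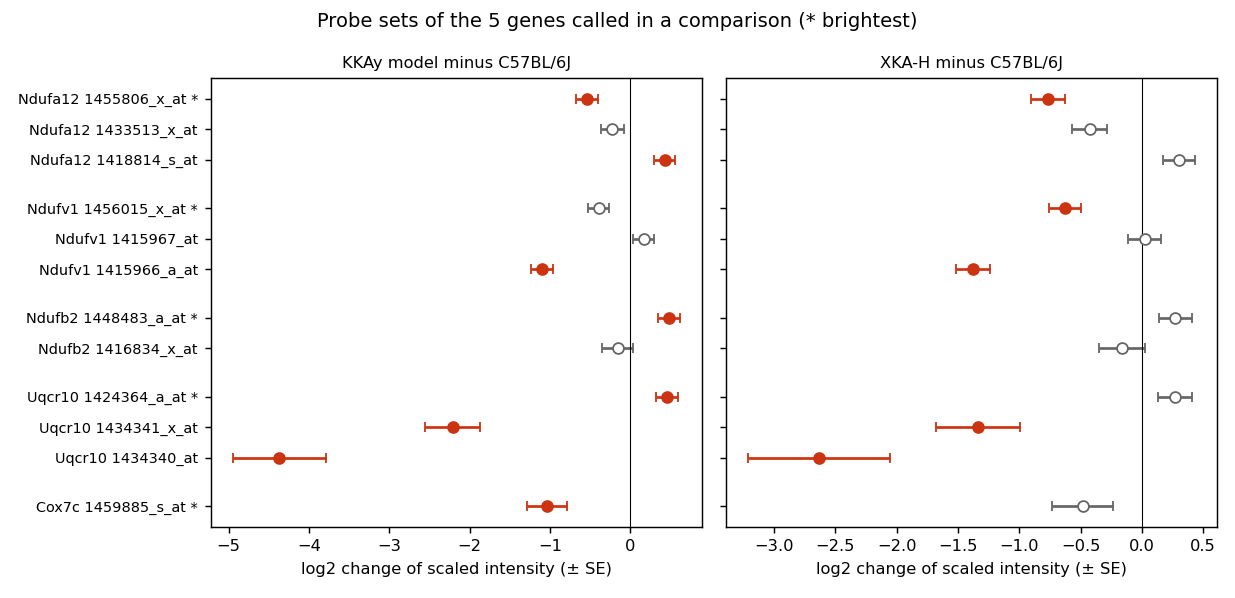
log2 change ± SE (x axis) for each probe set with a mean signal above 1000 (y axis) of the 5 called genes, for the KKAy model and for XKA-H against C57BL/6J mice. Filled points have a limma adjusted p under 0.05 in the fit of every probe set and the star marks the brightest probe set of a gene; Uqcr10 runs from 0.46 to -4.37 in the first panel.

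Among the 41 genes Uqcr10 differed most between its probe sets. On the dimmest of its 3 the normal arrays read 30982, 29260, 23955, 27156 and 29089, and the model arrays 1385, 1537, 1237, 1124 and 1540. The XKA-H arrays read 1543, 19214, 21076, 1893 and 1576. So 3 XKA-H arrays lay with the model arrays, and replicates 2 and 3 lay close to the normal ones. On the probe set of middle brightness the same arrays separated, at 29827 and 34436 on XKA-H replicates 2 and 3 and 7033 to 9119 on the other 3, with normal arrays at 30259 to 42421 and model arrays at 5576 to 8962. The model against normal changes were -4.37 ± 0.58 and -2.21 ± 0.34 (limma adjusted p = 4.25e-05 and 0.000243). The XKA-H against model changes, 1.73 ± 0.58 and 0.87 ± 0.34, did not pass (limma adjusted p = 0.363 and 0.481) and rest on those 2 arrays. The brightest probe set of Uqcr10 did not separate them.

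XKA-H replicates 2 and 3 stood apart in the same way on other probe sets. A search made after the Uqcr10 values were seen found 15 probe sets with a mean log2 signal above the array median on which these 2 arrays lay with the 5 normal arrays and at least 1 log2 unit apart from the other 8 KKAy arrays. On 13 they were high and on 2 low. Of these probe sets 12 carried 1 gene symbol, for 11 genes, and Uqcr10 was the only one of the 77 members. By the RefSeq table of GRCm38.p6, used for neighbours only, the 11 genes lay on 6 chromosomes, and 5 of these chromosomes held 2 of the genes each. Sec14l4, on chromosome 11 with Uqcr10 and 13 protein-coding genes away from it, read 18105 to 26596 on normal arrays, 15822 and 14767 on XKA-H replicates 2 and 3, and 232 to 1944 on the other 8 KKAy arrays. Psmd6, a proteasome subunit on chromosome 14, read 97081 to 129354, then 80375 and 80109, and 5782 to 9426. On these probe sets both arrays go against their KKAy label, and what sets them apart was not tested. Without both, no member was called between XKA-H and the model and Ndufa12 and Ndufv1 were called against normal mice, as with them, and the medians over the 77 genes were -0.21 and -0.04 in place of -0.09 and 0.06.

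**Figure D4:**
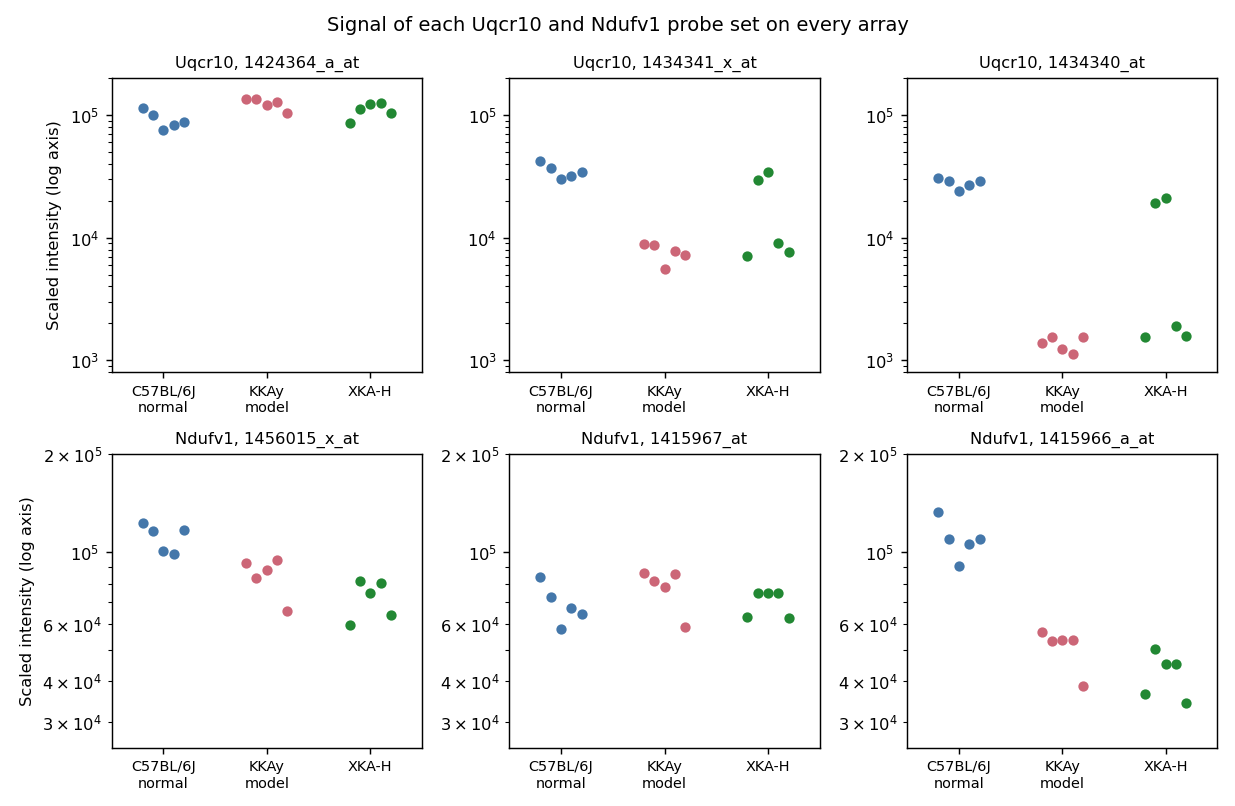
Scaled intensity on a log axis (y axis) of the 3 probe sets of Uqcr10 (top) and of Ndufv1 (bottom) on every array, by group (x axis); each point is 1 array. On the dimmest Uqcr10 probe set (top right), XKA-H replicates 2 and 3 read 19214 and 21076, near the normal arrays, and the other 3 read 1543 to 1893.

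The second comparison asked what XKA at 1.5 g/kg did to these genes in KKAy mice. None of the 77 genes was called by limma, either higher or lower, where 0.066% of all genes were called higher and 0.11% lower. At an unadjusted p under 0.05, 1 gene was higher (Cox7c, 0.55 ± 0.26) and 2 were lower (Ndufa8, -0.36 ± 0.14, and Ndufa10, -0.37 ± 0.15), beside 2.77% and 5.84% of all genes. Dunnett comparisons, the post-hoc test named in the methods, were also run, here with an adjustment that the methods do not describe. They called no gene at all, inside or outside the 77, so they cannot tell these genes from the rest. The smallest limma adjusted p among the 77 genes, 0.463, was that of Ndufa8, an accessory subunit of complex I. It read 129633, 128430, 134311, 126145 and 92556 on model arrays and 86506, 107368, 112781, 88333 and 81796 on XKA-H arrays, and the groups overlapped through KKAy model replicate 5.

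The median log2 change of the 77 genes between XKA-H and the model was -0.09, against -0.06 over all genes. Leaving out KKAy model replicate 5 moved it to -0.19, and leaving out both XKA-H replicates 2 and 3 to -0.21. It was -0.03 without XKA-H replicate 1 and -0.04 without replicate 5 of that group. All 8 genes of complex III and 16 of the 17 of complex V had values below 0, with medians of -0.13 and -0.11 (-0.05 and -0.03 after quantile normalization). Complex I had a median of -0.08 and complex IV one of 0.01. This comparison and the first share the model arrays, including replicate 5, so their signs are not independent. The 95% interval of the difference lay within ± 1 log2 unit for 70 of the 77 genes and within ± 0.58, a 1.5-fold change, for 64. The 7 genes with wider intervals were Cox6b2, Cox7a1, Cox7b2, Cox7c, Cox8b, Ndufa4l2 and Ndufb4. Changes smaller than these intervals could not be resolved with 5 arrays per group.

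The third comparison placed the treated mice beside the normal group. No gene was called higher in XKA-H than in C57BL/6J mice, beside 5.53% of all genes, and 2 were called lower, beside 1.95% of all genes. These were Ndufa12 and Ndufv1, and for both the groups did not overlap on the brightest probe set. Over all 18193 genes 362 were lower without overlap here. In the model against normal mice 433 were, 3 of them members. On its other bright probe sets Ndufa12 was at -0.43 ± 0.14 and 0.30 ± 0.13 in XKA-H against normal mice, and neither was called. The median log2 change over the 77 genes was 0.06, against 0.10 over all genes, and turned to -0.10 in the deposited values, -0.05 after quantile normalization and -0.04 without XKA-H replicates 2 and 3. With 1 array left out it ran from 0.01 (without C57BL/6J replicate 3) to 0.13 (without C57BL/6J replicate 1). In complexes III and V the medians were 0.11 and 0.06, and in the deposited values -0.05 and -0.10. Ndufa2 was at 0.32 ± 0.15 and Ndufs1 at 0.26 ± 0.13, and neither passed (limma adjusted p = 0.249 and 0.298). By the deposited values 5 genes were lower, and by quantile normalization 8, all of them in complex I, beside 4.29% and 4.42% of all genes.

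Genes that build or run the chain without matching the rule were counted from lists of textbook genes. Among 47 assembly factors, 10 were called higher in the model than in normal mice (21.3%, beside 10.6% of all genes) and none lower. In XKA-H against normal mice 5 were higher (10.6%, beside 5.53% of all genes) and none lower. After quantile normalization 10 were called, in the values as deposited 5, and with the mean of all probe sets of a gene 4. Of all genes, 8.81% were called higher in the model after quantile normalization and 6.25% in the values as deposited. Cox18, which inserts a mitochondrially encoded subunit of complex IV into the inner membrane, was the largest. It read 8575, 9277, 6701, 7020 and 7801 on normal arrays, 24879, 19518, 27630, 27197 and 16360 on model arrays, and 17618, 17231, 21012, 15597 and 14412 on XKA-H arrays, and every KKAy array was above every normal array. The log2 change was 1.54 ± 0.15 in the model and 1.12 ± 0.15 in XKA-H against normal mice (limma adjusted p = 9.74e-07 and 6.61e-05), on its only probe set. It was 1.34 in the values as deposited.

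Acad9, a flavoprotein that assists the assembly of complex I, was higher by 0.96 ± 0.14 in the model and 0.68 ± 0.14 in XKA-H (limma adjusted p = 0.000116 and 0.00428), from a mean signal of 7561 ± 746 (SD, n = 5) in normal mice to 14737 ± 1983 and 12260 ± 2437. Its next probe set moved likewise, by 0.88 ± 0.18 in the model. Sdhaf1, an assembly factor of complex II, rose by 0.70 ± 0.14 in the model and 0.69 ± 0.14 in XKA-H. Ttc19 and Uqcc2, both assembly factors of complex III, rose by 0.81 ± 0.17 and 0.73 ± 0.15 in the model on their brightest probe sets. For Ttc19 a dimmer probe set fell by 2.51 ± 0.60 on the log2 scale, and for Uqcc2 the other probe set was at 0.18 ± 0.31. No assembly factor was called between XKA-H and the model.

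Of the 4 genes of complex II, which passes electrons from succinate to ubiquinone, Sdha was called higher in the model (0.47 ± 0.13, limma adjusted p = 0.0206), and its other bright probe set was at 0.22 ± 0.14 and was not called. Of 4 chain proteins whose names the rule does not match, Atpif1, the inhibitor of ATP synthase, was called higher. It read 15942, 17739, 12905, 11679 and 12946 on normal arrays, 26776, 33406, 27505, 32757 and 27217 on model arrays, and 21076, 37841, 34906, 33544 and 30676 on XKA-H arrays. All KKAy arrays were above all normal arrays. The log2 change was 1.06 ± 0.15 in the model and 1.14 ± 0.15 in XKA-H (limma adjusted p = 8.29e-05 and 5.45e-05), and 0.87 in the model in the values as deposited. With the mean of its 3 probe sets, of which the other 2 were below the array median, the model change was 0.43 and was not called (limma adjusted p = 0.538). The difference between XKA-H and the model was 0.08 ± 0.15.

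**Figure D5:**
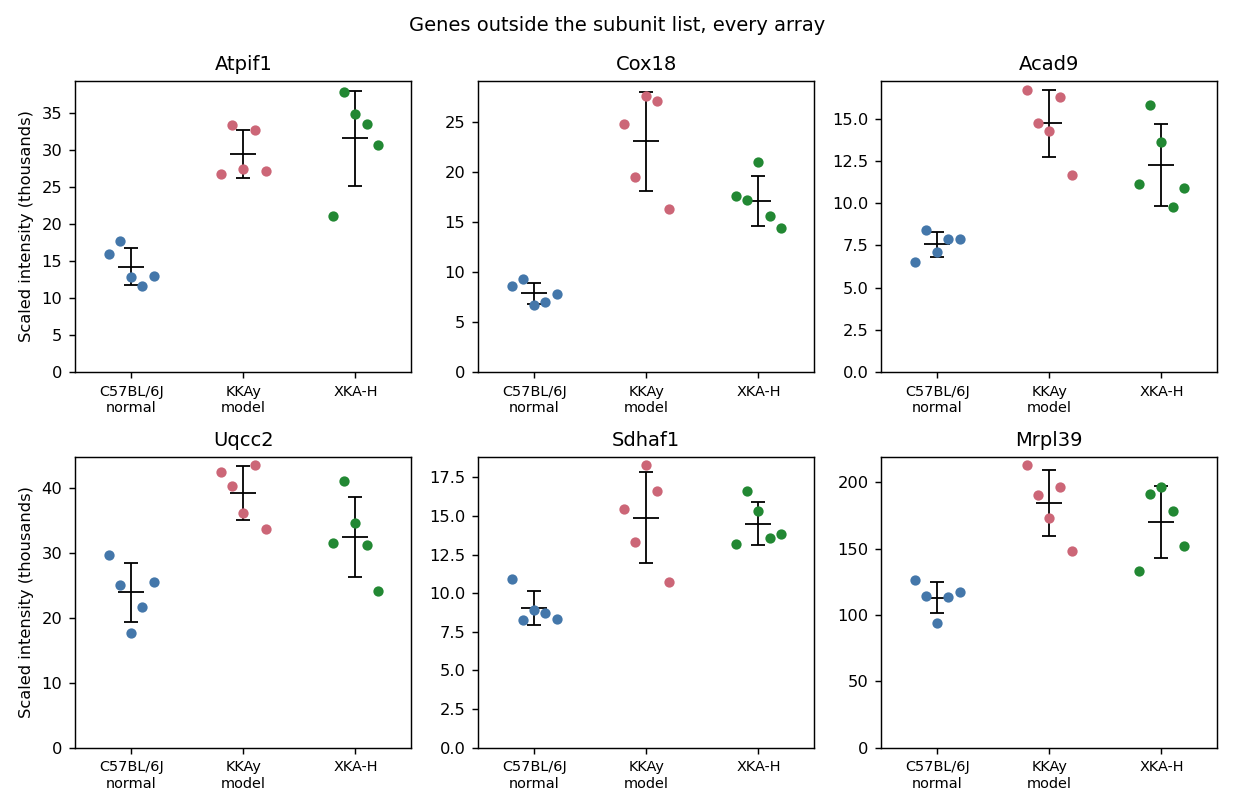
Scaled intensity divided by 1000 (y axis, from 0) on each array by group (x axis) for ATP synthase inhibitor Atpif1, assembly factors Cox18, Acad9, Uqcc2 and Sdhaf1, and ribosomal protein Mrpl39. Points are arrays and bars the mean ± SD of 5 arrays; for Atpif1 the normal arrays lie at 11679 to 17739 before that division and the KKAy arrays at 21076 or above.

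The mitochondrial ribosome, which makes the subunits encoded in the mitochondrion, had 76 measured genes, with 10 called higher (13.2%, beside 10.6% of all genes) and 1 lower in the model. Mrpl39 rose by 0.70 ± 0.14 (limma adjusted p = 0.00222), from a mean of 113060 ± 11729 to 184239 ± 24926 (SD, n = 5), and its other probe set rose by 0.58 ± 0.13. Mrpl34, Mrps28 and Mrps6 rose by 0.49 to 0.52, and Mrpl15 fell by 0.44. The direction of this list turned with the scaling, with 3 higher and 7 lower in the values as deposited and 6 and 8 after quantile normalization, while all genes gave 1137 and 1027, and 1602 and 1102. Leaving out KKAy model replicate 3 and XKA-H replicate 1 together left 2 called.

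Of 21 regulators of mitochondrial biogenesis none was called by limma in the model against normal mice, where 4 were higher and 1 lower at an unadjusted p under 0.05 (19.0% higher, beside 19.5% of all genes). In XKA-H against normal mice 2 were called higher (9.52%, beside 5.53% of all genes). They were Esrrg (0.82 ± 0.24, limma adjusted p = 0.0373) and Ppara (0.60 ± 0.16, limma adjusted p = 0.0289). Both are nuclear receptors of oxidative metabolism. On other probe sets Ppara was at 0.03 and -0.28 and Esrrg at -1.55 and 0.28 in the same comparison. The Ppara probe set at -0.28 was lower in the model against normal mice, at -0.64 ± 0.17. It passed there in the fit of every probe set (limma adjusted p = 0.0235). None of 7 carriers of the inner membrane was called in any comparison. Of 11 import and matrix markers, Cs, the citrate synthase often used as a measure of mitochondrial content, was called lower in XKA-H than in normal mice, at -0.60 ± 0.15 (limma adjusted p = 0.0154). Its other probe sets were at -0.44 and 0.23.

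Some genes listed as markers of other cells differed between the same groups. In the model against normal mice, Stab2, Vwf and Clec4g of 8 endothelial markers and Acta2, Col3a1 and Rgs5 of 9 stellate cell and fibroblast markers were called higher, while 4 of those 9 had values below 0, down to -1.18. Marco was called lower, and the other 9 of the 10 Kupffer cell markers had values above 0, none of them called. S100a8 of 7 neutrophil, Fabp4 of 7 adipocyte, Cidea and Elovl3 of 4 brown adipocyte and Alas2 of 3 erythroid markers were also called higher. No lymphocyte, cholangiocyte or striated muscle marker was called. Of the endothelial markers 5 of 8 were above 0, of the neutrophil 6 of 7, adipocyte 5 of 7 and erythroid 2 of 3. The lowest values of these lists were -0.53, -0.02, -0.59 and -0.78. Between XKA-H and the model Elovl3 alone was called, and it was lower. Elovl3 was bright on the normal liver arrays too, at 83666 to 133043. Its calls are therefore not read as a change in brown adipocytes. The summed endothelial signal was 46328 to 63460 on normal arrays, 68462 to 87589 on model arrays and 51510 to 87714 on XKA-H arrays. The summed hepatocyte signal was 3630560 to 5788710, 4004030 to 6249240 and 3833040 to 5147120 and overlapped in all groups. The log2 ratio of the 3′ to the 5′ control probe sets of Gapdh was -0.27 to 0.24 on normal arrays, -0.49 to -0.08 on model arrays and -0.33 to -0.05 on XKA-H arrays. The part of cell composition and RNA quality in the differences above was not tested.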

How the data were processed

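The authors deposited linear probe-set intensity values for 45101 probe sets on 15 arrays. Their methods describe median scaling to 1000 with ArrayTrack, which the medians of the deposited table do not show. The sources used here do not state how probes were summarised. Here each array was scaled to a median of 1000 and taken to log2. Of the probe sets, 34958 carried 1 gene symbol, 932 several and 9211 none, 13 control probe sets were left out, and 34741 matched RefSeq through Entrez identifiers. For each of 18193 genes the probe set of highest mean signal over the 15 arrays was taken. Groups were compared with limma 3.58.1 in R 4.3.3 (lmFit, contrasts and eBayes with an intensity trend, all 15 arrays, two-sided, Benjamini-Hochberg over all genes), and single genes also with the exact permutation test. The number of arrays limits the precision, and the median 95% interval of a member was ± 0.31 on the log2 scale. The fit was tested on simulated data. The files were read with data.table (1.17.8), Dunnett comparisons used mvtnorm 1.3.3, and figures were drawn with Python 3.11.15, pandas 2.3.3 and matplotlib 3.10.9.

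The members, the gene lists and the tests were chosen with earlier results of these data known. The text names members called in any comparison, the most positive and most negative members of each complex, tissue isoforms, 8 core members, and up to 4 called genes from other lists; other genes, among them Sdhaf1 and the genes that moved with Uqcr10, were named after their values were seen. In 9 probe sets with several symbols a member's name was among them, and these were not used. The alternatives were other scalings, other uses of a gene's probe sets, a filter on dim genes, no intensity trend, array weights, Dunnett comparisons, only the groups compared, the replicate number as a block and the removal of arrays. The methods give both a fed and a fasted state around the sacrifice, so the feeding state is not settled.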

Additional observations from a re-analysis of the deposited data

Results flagged for a closer look

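In each group of 5 arrays, 33 levels were checked for a lowest or highest array far from the other 4, by the gap to the nearest array over the whole range of the group. Of 99 checks 9 stood out. For a single check chance gives about 1 in 20, but these checks are not independent. The complex means hold genes that were also checked singly, and some genes were named for their values. The count is therefore not set against that rate. In 7 of the 9 it was KKAy model replicate 5, the lowest array, with ratios of 0.722 for Atp5c1, 0.829 for Atp5e, 0.781 for Cox5a, 0.742 for Uqcrh, 0.838 for Uqcrq, 0.846 for the mean level of complex III and 0.756 for that of complex V. For Atp5e it read 100788, against 153396 to 167292 on the other model arrays, and for Uqcrq 181981, against 250621 to 266579. In complex IV the mean level of this array was the highest of its group, at 14.37. All these levels were scaled, and the check was not run on the values as deposited.

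The other 2 were dim isoforms. Cox6a2 read 780 on XKA-H replicate 1 against 1789 to 2062 (ratio 0.854), and Cox6b2 read 157 on C57BL/6J replicate 1 against 927 to 1567 (ratio 0.772).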

How the results depend on the processing

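Between the KKAy model and C57BL/6J mice 5 members were called. The number was 9 after quantile normalization and 11 with array weights. It was 3 each with the mean of the probe sets of a gene, without the intensity trend, with Dunnett comparisons and with the replicate block. When 1 array was left out it was 2 to 13. It was 2 without KKAy model replicate 1, C57BL/6J replicate 3 or C57BL/6J replicate 4 and 13 without KKAy model replicate 5. The calls over all genes moved too. They were 2366 as reported, 2704 after quantile normalization, 2986 with array weights and 2789 without KKAy model replicate 5. In the settings with 3 members they were 1581, 1829, 1379 and 2103, in the order above. Arrays of the same number showed little common deviation (correlations of -0.04 to 0.09 over 15 pairs), and the numbers were not taken as pairs. The highest, 0.09, was between replicate 5 of the KKAy model and replicate 5 of XKA-H. Shared handling of arrays with the same number was not tested. Between XKA-H and C57BL/6J mice 2 were called, 5 by the deposited values and 8 by quantile normalization, and 2 whichever array was left out. Between XKA-H and the model the count was 0 in every setting run, although the Dunnett comparisons called no gene of the whole array there.

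The mean of its probe sets turned Uqcr10 to -2.04 in the model and -1.23 in XKA-H against normal mice. It also ended the calls of Cox7c (-0.64), Ndufa12 (-0.30) and Ndufb2 (0.00) in the model and of Ndufa12 in XKA-H against normal mice (-0.04). The Uqcr10 call in the model was also lost by the deposited values (0.26) and by quantile normalization (0.25), and the calls of Uqcr10 and Ndufv1 were lost without the intensity trend, with Dunnett comparisons and with the replicate block. Over all genes, 1924 were called higher and 442 lower in the model, while the deposited values gave 1137 and 1027 and quantile normalization 1602 and 1102. In XKA-H against normal mice they were 1006 and 355, 703 and 780, and 1020 and 805. The median over the members in that comparison was -0.10 in the values as deposited. Of the 2302 values of named members under other settings, 2244 stayed on their side of the threshold. Most of these belong to members not called in any setting, so the count says little about the called genes. Of 27 other settings, the Ndufv1 call in the model was lost in 20. The Uqcr10 call was lost in 12 and reversed in 1. The cause of these changes was not tested. Removing XKA-H replicates 2 and 3 together, chosen after seeing the data, left 5, 0 and 2 members called in the 3 comparisons.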
